A study of Arabidopsis thaliana with 6 samples.

Results

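Short constitutive introns of *Arabidopsis thaliana* are here the introns under 80 nt for which the deposited table lists no alternative splicing event. They were also chosen as introns that wild-type seedlings spliced nearly completely. For each intron, the deposited table holds the reads across its first boundary, the reads across its second boundary and the reads spliced across it. The introns were chosen by measured values and length. Each had to reach 5 spliced reads per library on average in both genotypes, with a pooled retained share below 20% in wild type and a length under 80 nt. The retained share is the number of boundary reads divided by the boundary reads plus 2 times the spliced reads. This gave 9882 introns in 5876 host genes, out of 126267 introns in the table, 92582 introns with all junction counts and 90948 introns of any length under the same rule. Because the wild-type share and the spliced reads chose these introns, the levels are given as descriptions. The comparison of genotypes uses the same counts and is not independent of the choice. The libraries came from *prp40c-1* seedlings, which carry a T-DNA insertion in *PRP40C* (AT3G19840), and from wild-type seedlings of the ecotype Col-0, with 3 libraries per genotype, to ask what loss of PRP40C does to splicing. Seedlings of both genotypes received no treatment, grew on MS agarose medium at 22°C in continuous white light of 50 μmol per square metre and second, and were harvested whole. The labels give an age of 10 to 14 days at harvest, and the study's methods name a day within that range. Only 1 mutant allele was sequenced, and the sources used here do not give the number of seedlings in a library.

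Introns are removed by the spliceosome, which first recognises the 5′ splice site through the U1 snRNP, and the branch point and 3′ splice site through the branch point binding protein, U2AF and the U2 snRNP. In yeast, Prp40 is a protein of the U1 snRNP, and PRP40C is a plant relative of it. Plant introns are mostly short and rich in U, intron retention is the most common form of alternative splicing in plants, and a retained intron often brings a stop codon into the reading frame.

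The sequences that follow were read from the RefSeq assembly TAIR10.1, in which they lie at the coordinates of the deposited TAIR10 junctions, and are written 5′ to 3′ on the strand of the gene. Capitals mark the first and last dinucleotide and, where the last 50 bases hold one, the CTNAC or CTNAT nearest to the 3′ end, letters of the plant branch point consensus. The first set is shown because these introns had the largest gains in retained share in *prp40c-1* (9 of 10, without an intron of a 5′ UTR). Gains were ranked only among tested introns with an unadjusted p below 0.05 and no overlap between genotypes, as described further on.
AT3G08840, chr3:2680591-2680664, minus strand: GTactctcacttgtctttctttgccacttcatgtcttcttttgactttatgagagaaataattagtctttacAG
MGT7 (AT5G09690), chr5:3001653-3001715, minus strand: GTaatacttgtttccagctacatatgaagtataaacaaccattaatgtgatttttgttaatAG
FLD (AT3G10390), chr3:3232223-3232295, plus strand: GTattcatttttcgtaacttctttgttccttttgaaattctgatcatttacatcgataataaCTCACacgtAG
CYP76C6 (AT1G33720), chr1:12221575-12221649, minus strand: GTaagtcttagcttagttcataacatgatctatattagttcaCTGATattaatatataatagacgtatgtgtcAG
AT4G26600, chr4:13422636-13422713, plus strand: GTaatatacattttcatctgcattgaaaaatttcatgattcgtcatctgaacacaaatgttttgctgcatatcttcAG
UPS2 (AT2G03530), chr2:1072846-1072909, plus strand: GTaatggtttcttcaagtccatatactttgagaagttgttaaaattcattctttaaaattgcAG
PPX2 (AT5G55260), chr5:22417642-22417716, plus strand: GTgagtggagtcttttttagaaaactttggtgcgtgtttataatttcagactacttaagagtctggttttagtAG
AT4G02120, chr4:942544-942609, plus strand: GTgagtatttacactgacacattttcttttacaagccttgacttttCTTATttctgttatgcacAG
AT3G32940, chr3:13493059-13493128, minus strand: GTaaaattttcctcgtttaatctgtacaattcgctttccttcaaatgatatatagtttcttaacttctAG
The second set is shown because these 6 introns had the largest losses in retained share in *prp40c-1*, ranked under the same limits.
AT1G69520, chr1:26129202-26129266, plus strand: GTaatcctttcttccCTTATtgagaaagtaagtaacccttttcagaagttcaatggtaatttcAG
AT2G05160, chr2:1859290-1859368, minus strand: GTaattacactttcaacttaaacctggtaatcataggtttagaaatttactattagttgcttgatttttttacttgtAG
AT1G19340, chr1:6685294-6685371, plus strand: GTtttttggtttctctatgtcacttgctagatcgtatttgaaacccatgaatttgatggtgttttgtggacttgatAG
MYB16 (AT5G15310), chr5:4975662-4975738, plus strand: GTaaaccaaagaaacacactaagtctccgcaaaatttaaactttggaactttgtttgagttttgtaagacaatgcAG
AT3G10440, chr3:3247886-3247952, plus strand: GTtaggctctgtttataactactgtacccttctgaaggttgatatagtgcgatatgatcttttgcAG
FHY1 (AT1G79790), chr1:30017765-30017829, minus strand: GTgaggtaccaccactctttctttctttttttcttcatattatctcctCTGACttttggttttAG
The third set shows the 5 shortest introns that had at least 100 spliced reads in every library. Their pooled retained share in wild type ran between 0.166% (*DPE1*) and 6.16% (AT3G23080).
AT3G23080, chr3:8208309-8208367, minus strand: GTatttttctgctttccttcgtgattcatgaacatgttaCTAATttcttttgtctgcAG
AT4G24930, chr4:12821874-12821932, minus strand: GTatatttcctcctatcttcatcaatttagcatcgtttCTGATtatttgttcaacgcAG
DPE1 (AT5G64860), chr5:25927933-25927992, minus strand: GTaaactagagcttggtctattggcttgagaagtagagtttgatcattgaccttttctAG
ATGRIP (AT5G66030), chr5:26406385-26406444, minus strand: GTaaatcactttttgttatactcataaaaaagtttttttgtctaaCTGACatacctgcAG
RDH2 (AT1G16460), chr1:5620106-5620166, minus strand: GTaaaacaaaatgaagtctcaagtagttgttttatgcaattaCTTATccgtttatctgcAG
The last set is a contrast to the first, with the 3 introns of most spliced reads among those without any boundary read.
TROL (AT4G01050), chr4:457231-457309, plus strand: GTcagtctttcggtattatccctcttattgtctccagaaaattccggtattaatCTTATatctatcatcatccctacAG
LARP6b (AT2G43970), chr2:18206854-18206932, minus strand: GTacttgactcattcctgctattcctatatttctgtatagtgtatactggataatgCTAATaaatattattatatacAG
PAB2 (AT4G34110), chr4:16338363-16338437, plus strand: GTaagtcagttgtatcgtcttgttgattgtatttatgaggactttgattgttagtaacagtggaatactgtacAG
The motif was found in 3 of the 10 introns with the largest gains, 2 of the 6 with the largest losses, 4 of the 5 shortest and 2 of the 3 without a boundary read. A match describes the letters and is not a mapped branch point.

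The introns were 59 to 79 nt long with a median of 76 nt, and 9047 of them (91.6%) had 70 nt or more. They made up 10.9% of the introns under the same rule, whose median length was 100 nt and most common length 86 nt. Of the 9879 introns placed on a strand, 99.3% began with GT and 67 began with GC, and 100% ended with AG. CTNAC or CTNAT on the sense strand within the last 50 bases was present in 49.9%, against 46.9% of the introns of 80 to 99 nt and 47.1% of those of 100 to under 200 nt. The base at position 5 was G in 51.9%, against 50.2% and 51.2% in the same classes. The median content was 40.6% T and 32.9% G and C. A coding sequence was interrupted by 9757 of the introns, a 5′ UTR by 55 and a 3′ UTR by 51. If kept, 1834 of the coding introns (18.8%) would hold no stop codon in the reading frame within the intron. This compares with 14.9% at 80 to 99 nt and 7.39% at 100 to under 200 nt. For 442 of the 1834 (4.53% of the coding introns) the length was also a multiple of 3. The others would shift the frame, and stop codons after the intron were not looked for.

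Gene counts per library ran between 34200225 and 40919516 reads. Over the short introns, each library had 1576082 to 1944568 spliced reads and 25768 to 29000 boundary reads. The leaf genes *RBCS1A* and *CAB2* and the root gene *PYK10* stood at 2119 to 12719 CPM (gene counts scaled to the library total) in every library, while the flower genes *AP3* and *AG* and the seed storage genes *CRA1* and *CRU3* stood at 0 to 0.464 CPM, which fits the label of whole seedlings. *PRP40C* itself had 12.8 ± 1.08 CPM in *prp40c-1* and 25.1 ± 2.75 CPM in wild type (SD, n = 3 each), a log2 fold change of -0.97 (SE 0.106, edgeR adjusted p = 2.1e-05), where SE is the standard error. These CPM are for the gene as a whole. By RT-PCR across the insertion, the study found full-length *PRP40C* mRNA to be strongly reduced in its mutant alleles. For other genes in whole seedlings, fewer cells of a type and less RNA per cell cannot be told apart. *PRP40C* holds no intron under 80 nt among the introns under the rule. The study's methods call the libraries of a genotype biological replicates, while the labels do not say whether they came from separate cultures, and p-values measure the spread between these libraries.

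Most short introns were spliced almost completely. In wild type 6969 of them (70.5%) had a pooled retained share below 1%, and 2967 had no boundary read in any of the 6 libraries. A share of 5% or more was reached by 870 introns in *prp40c-1* (8.80%) and by 729 in wild type (7.38%), where the rule sets an upper limit in wild type only, and 55 introns reached 20% or more in *prp40c-1*. Taken over all short introns, the retained share was 0.815, 0.823 and 0.822% in *prp40c-1* and 0.747, 0.741 and 0.706% in wild type. Every *prp40c-1* library lay above every wild-type library. The means were 0.820 ± 0.00427% in *prp40c-1* and 0.731 ± 0.0220% in wild type (SD, n = 3 each), a ratio of 1.12. With no limit on the wild-type share, the difference of 0.0885 percentage points became 0.0911. Pooled shares weigh each intron by its reads, so introns of strongly expressed genes count for more. The median over introns was 0.220% in *prp40c-1* and 0.210% in wild type, and the median difference of an intron was 0.

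As a class, the short introns were retained more than the introns of 80 to 99 nt, but the limit of 80 nt marked no step. Introns of the single lengths on either side of that limit, given further on, had like shares. Introns of 80 to 99 nt had 0.499 ± 0.00631% in *prp40c-1* and 0.434 ± 0.0152% in wild type. The share was higher again for introns of 400 nt or more, at 0.980 ± 0.00902% in *prp40c-1* and 0.813 ± 0.0690% in wild type (SD, n = 3 each). The ratio of *prp40c-1* over wild type was 1.12 for the short introns and 1.15, 1.23, 1.20 and 1.21 for the introns of 80 to under 100, 100 to under 200, 200 to under 400 and 400 or more nt. The order of the first classes was also seen within genes that hold a short intron and an intron of 80 nt or more. In these genes the 9632 short introns had 0.786 ± 0.00419% in *prp40c-1* and 0.700 ± 0.0188% in wild type, and the introns of 80 to 99 nt had 0.474 ± 0.00534% in *prp40c-1* and 0.414 ± 0.0177% in wild type (SD, n = 3 each).

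**Figure D1:**
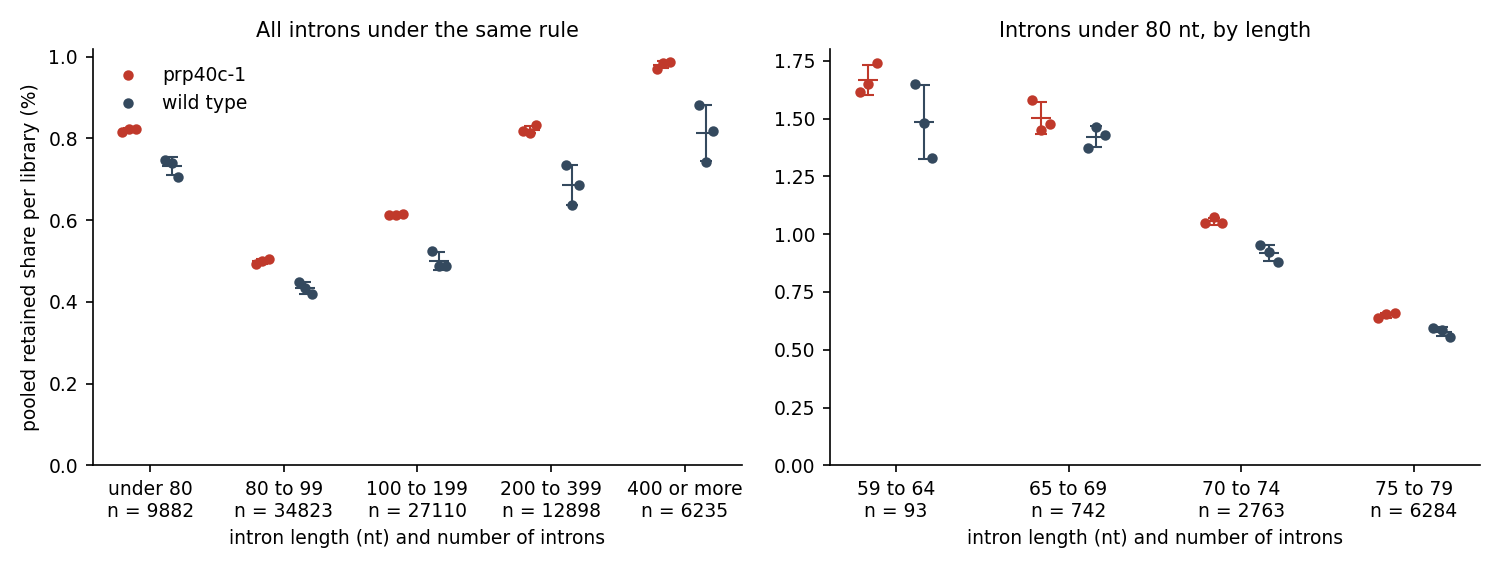
Pooled retained share (%) of each library by intron length in nt, for all introns under the same rule (left) and within the short introns (right), with *prp40c-1* left of wild type and mean and SD of 3 libraries per genotype. The short introns stand above the class of 80 to 99 nt, at 0.820% against 0.499% in *prp40c-1* and 0.731% against 0.434% in wild type.

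Among the short introns the share was higher the shorter the class. It was 1.67 ± 0.0660% in *prp40c-1* and 1.49 ± 0.16% in wild type for the 93 introns of 59 to 64 nt (SD, n = 3 each). For the 742 introns of 65 to 69 nt it was 1.5 ± 0.0682% in *prp40c-1* and 1.42 ± 0.0458% in wild type. The genotypes overlapped in both classes. It was 1.06 ± 0.0153% in *prp40c-1* and 0.918 ± 0.0359% in wild type at 70 to 74 nt and 0.649 ± 0.0104% in *prp40c-1* and 0.578 ± 0.0190% in wild type at 75 to 79 nt (SD, n = 3 each), without overlap. The medians over introns ran opposite to the pooled shares in 2 classes. They were 1.89% in *prp40c-1* and 2.22% in wild type at 59 to 64 nt, and 0.118% in *prp40c-1* and 0.135% in wild type at 75 to 79 nt. In the same order as the pooled shares, they were 0.839% in *prp40c-1* and 0.694% in wild type at 65 to 69 nt. At 70 to 74 nt they were 0.353% in *prp40c-1* and 0.298% in wild type. Among internal introns alone, the 72 of 59 to 64 nt had 3.43 ± 0.137% in *prp40c-1* and 2.33 ± 0.115% in wild type, also without overlap, with medians over introns of 1.88% in *prp40c-1* and 1.81% in wild type. The 4750 internal introns of 75 to 79 nt had 0.533 ± 0.00636% in *prp40c-1* and 0.465 ± 0.00766% in wild type.

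The order held among introns of like depth. With the introns split into 4 groups by spliced reads, the share in the lowest group was 7.94 ± 1.23% in *prp40c-1* and 5.28 ± 0.624% in wild type at 59 to 64 nt and 2.04 ± 0.0939% in *prp40c-1* and 1.79 ± 0.130% in wild type at 75 to 79 nt. In the highest group it was 1.14 ± 0.0701% in *prp40c-1* and 1.15 ± 0.128% in wild type at 59 to 64 nt and 0.448 ± 0.00979% in *prp40c-1* and 0.416 ± 0.0132% in wild type at 75 to 79 nt (SD, n = 3 each).

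Introns just inside and just outside each limit of the rule are described here once. The 1584 introns of 79 nt had 0.575 ± 0.0230% in *prp40c-1* and 0.548 ± 0.0177% in wild type, and the 1613 introns of 80 nt had 0.592 ± 0.0149% in *prp40c-1* and 0.556 ± 0.0122% in wild type (SD, n = 3 each). Just inside the share limit, 19 introns with 18 to 20% in wild type had 17.4 ± 1.5% in *prp40c-1* and 18.8 ± 2.83% in wild type. Just outside it, 17 introns with 20 to 22% had 25.1 ± 1.3% in *prp40c-1* and 20.7 ± 1.35% in wild type. Near the limit of spliced reads, 37 introns with a lowest mean of 5 to 6 had 3.24 ± 1.86% in *prp40c-1* and 2.45 ± 0.676% in wild type, and 34 with 4 to 5 had 3.19 ± 0.785% in *prp40c-1* and 3.22 ± 0.483% in wild type.

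**Figure D2:**
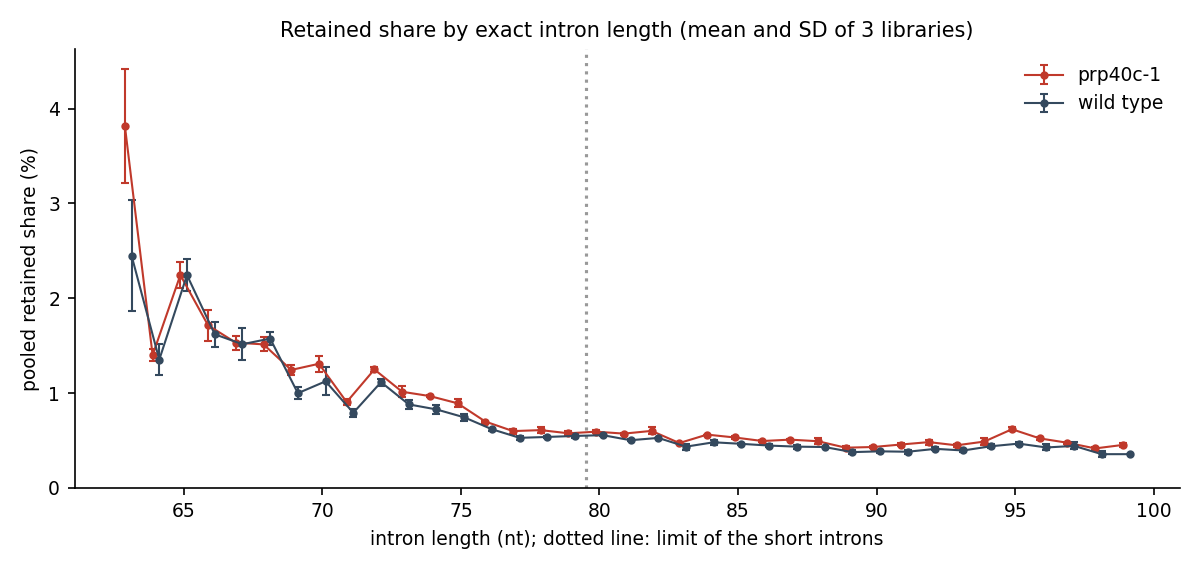
Pooled retained share (%) of the introns of each exact length from 63 to 99 nt, as mean and SD of 3 libraries for *prp40c-1* and wild type. The share tends to be lower at greater length in both genotypes, with ups and downs between neighbouring lengths, at 1.31% in *prp40c-1* and 1.12% in wild type for 70 nt and 0.575% and 0.548% for 79 nt.

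Introns with a CTNAC or CTNAT in their last 50 bases had a lower share. It was 0.704 ± 0.00803% in *prp40c-1* and 0.632 ± 0.0168% in wild type for the 4928 introns with the motif, and 0.939 ± 0.0166% in *prp40c-1* and 0.834 ± 0.0277% in wild type for the 4954 introns without it (SD, n = 3 each). In the shortest class, 39 introns of 59 to 64 nt without the motif had 4.52 ± 0.216% in *prp40c-1* and 3.19 ± 0.245% in wild type, and the 54 with it had 1.05 ± 0.0164% in *prp40c-1* and 1.12 ± 0.210% in wild type. The medians over introns lay closer, at 2.52% in *prp40c-1* and 2.25% in wild type without the motif, and 1.86% in *prp40c-1* and 2.21% in wild type with it. Pooled shares weigh by reads, and the intron of *LHCB3* (64 nt), among the 5 short introns with most spliced reads, is in the class with the motif. At 65 to 69 nt the order of the means was turned round in wild type, with overlap, where introns with the motif had 1.32 ± 0.135% in *prp40c-1* and 1.45 ± 0.0467% in wild type and introns without it 1.71 ± 0.0504% in *prp40c-1* and 1.39 ± 0.0462% in wild type.

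Place in the transcript went with larger differences. The 7488 internal introns had 0.683 ± 0.00341% in *prp40c-1* and 0.578 ± 0.0110% in wild type. The 1427 last introns had 1.13 ± 0.00980% in *prp40c-1* and 1.10 ± 0.0521% in wild type, and the 129 introns that are the only intron of their transcript had 2.26 ± 0.221% in *prp40c-1* and 2.17 ± 0.119% in wild type (SD, n = 3 each). The genotypes overlapped for last and only introns and stood apart for internal ones. The 55 introns of a 5′ UTR had 3.92 ± 0.395% in *prp40c-1* and 3.20 ± 0.432% in wild type, with overlap. Introns with A at position 3 from the 3′ end, in place of the usual C or T, numbered 380 and had 1.56 ± 0.0810% in *prp40c-1* and 1.33 ± 0.0772% in wild type. Coding introns that bring an in-frame stop codon numbered 7923 and had 0.798 ± 0.00238% in *prp40c-1* and 0.709 ± 0.0160% in wild type, and the 442 without one and with a length divisible by 3 had 0.849 ± 0.0826% in *prp40c-1* and 0.805 ± 0.0653% in wild type (SD, n = 3 each). These are differences across introns, which also differ in expression and host gene.

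**Figure D3:**
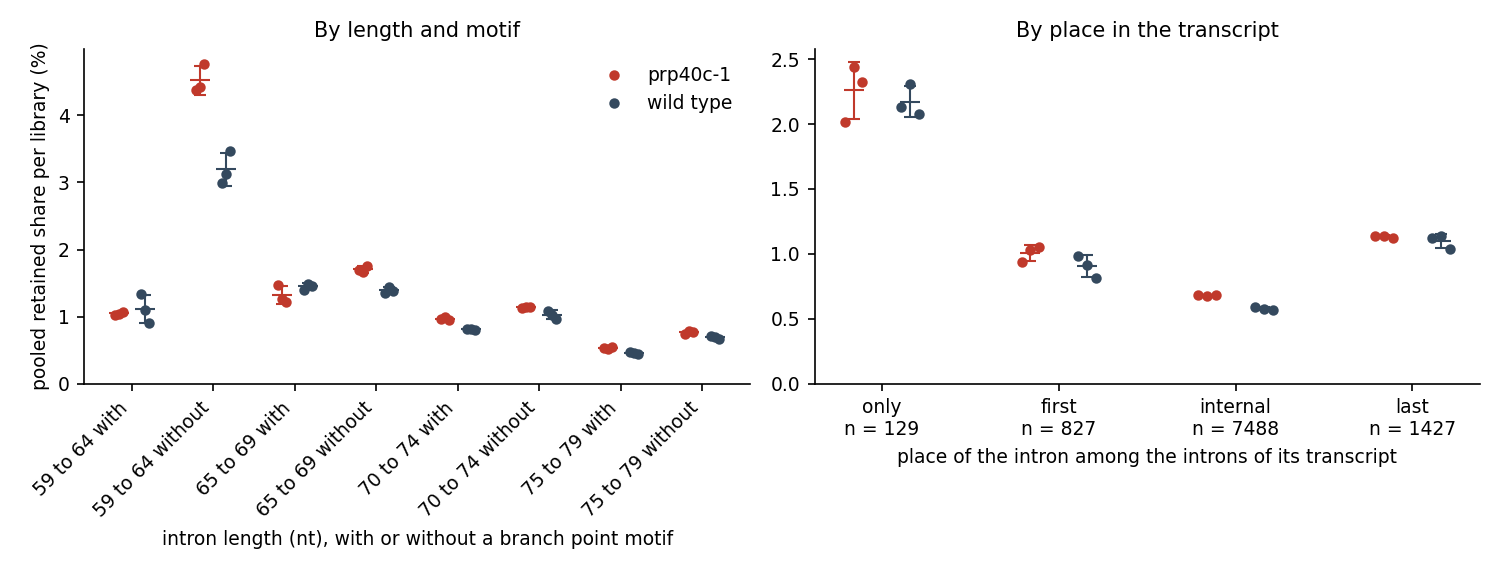
Pooled retained share (%) of the short introns in each library, by length in nt and presence of CTNAC or CTNAT in the last 50 bases (left) and by place among the introns of the transcript (right), with *prp40c-1* left of wild type and mean and SD of 3 libraries. The pooled share of introns of 59 to 64 nt without the motif is 4.52% in *prp40c-1* and 3.19% in wild type, while their median over introns is 2.52% in *prp40c-1* and 2.25% in wild type, and introns that are the only intron lie above 2% in every library.

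A read can cross both boundaries of such a small intron and is then counted at each. Over the short introns with at least 5 boundary reads in a library, the log2 counts at both boundaries had a Pearson correlation of 0.47 to 0.57 across 1456 to 1679 introns, which share that library's depth. It was 0.39 to 0.46 for introns of 80 to 99 nt and 0.15 to 0.21 for those of 100 to under 200 nt. For introns of 400 nt or more it was -0.13 to -0.06. The counting intervals given further on cover counting error only and are too narrow for this reason.

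Whether retention of single introns differed between genotypes was tested with the interaction of read type and genotype in edgeR's quasi-likelihood model, over introns that averaged 5 or more boundary reads in either genotype. Of the short introns, 1820 in 1545 genes passed this minimum, 968 through both genotypes, 459 only through *prp40c-1* and 393 only through wild type. At a false discovery rate (FDR) below 0.15 and an absolute log2 change above 0.58, edgeR called 0 of them and 0 of all 14756 tested introns (0%), with a smallest FDR of 0.323. The DESeq2 Wald test called 20 short introns, against 0.874% of all introns tested. Of these, 13 were higher in *prp40c-1*, against 0.684% of all, and 7 were lower, against 0.19%. At an unadjusted p below 0.05 in edgeR, 145 short introns (7.97%) were higher in *prp40c-1*, against 7.18% of all introns tested, and 78 (4.29%) were lower, against 3.37%. When library sizes were set to the column totals per read type, 105 short introns (5.77%) were higher and 112 (6.15%) lower. Over all introns tested, 5.28% were higher and 4.88% lower with this setting. Of the short introns at that p, 48.4% were thus higher in place of 65%. The median log2 change was 0.20 over the tested short introns and 0.19 over all tested introns, and 0.03 and 0.01 with column totals. The libraries did not overlap for 190 introns with a higher share in *prp40c-1* (10.4%) and 111 with a lower share (6.10%), against 11.6% and 5.97% of all introns tested. The rule used the wild-type counts, and an intron's direction is partly fixed where it passed the minimum through 1 genotype only, so these counts are descriptions.

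**Figure D4:**
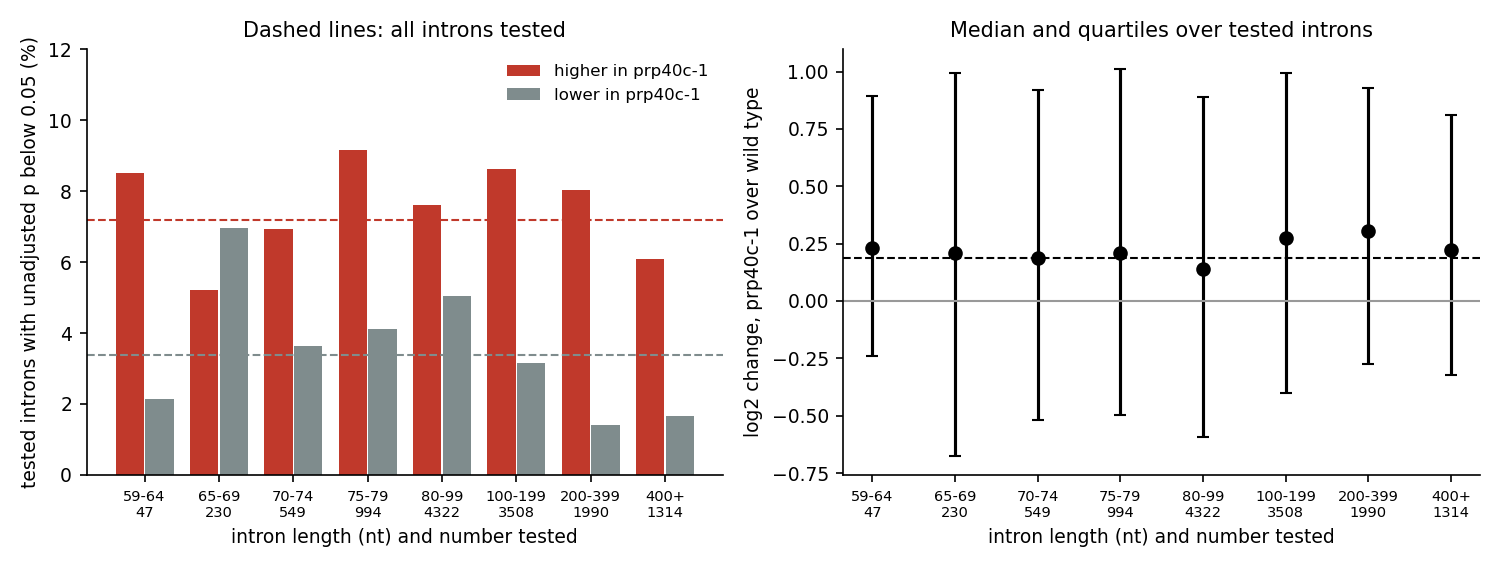
Left: share (%) of tested introns with an unadjusted p below 0.05 by length class, higher and lower in *prp40c-1*, with dashed lines at 7.18% and 3.37% for all introns tested. Right: median and quartiles of the log2 change of *prp40c-1* over wild type by length class, where the medians of the short classes (0.19 to 0.23) lie near the median of 0.19 over all introns tested.

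The 145 introns with a higher ratio had a median share of 4.52% in *prp40c-1* and 0.583% in wild type, and the 78 with a lower ratio 0.304% in *prp40c-1* and 2.74% in wild type. The fit chose both sets, so these values describe them. CTNAC or CTNAT was present in 48.3% of the higher and 48.7% of the lower introns, against 43.1% of the tested short introns. A G at position 5 was present in 48.3% and 33.3%, against 48.1%. Of the host genes, 6 had 2 or more such introns, all higher in 4 genes and all lower in 1.

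Of 110 introns with a higher share in *prp40c-1* at an unadjusted p below 0.05 and without overlap between genotypes, those with the 10 largest gains lay in genes of varied function. None of these single introns passed the adjusted threshold of edgeR, and their values are given as descriptions. These introns and those with the largest losses were picked for their difference, so the ratios and counting intervals given for them describe these reads only. *MGT7* (AT5G09690) encodes a magnesium transporter, and its intron of 63 nt between coding exons (chr5:3001653-3001715) had a retained share of 50.7, 54.1 and 70.7% in *prp40c-1* and 14.3, 8.70 and 22.6% in wild type. All *prp40c-1* libraries lay far above the wild-type ones, with 35, 33 and 29 against 5, 4 and 7 boundary reads, and the intron had a log2 change of 3.00 (SE 0.797, edgeR adjusted p = 0.348). *FLD* (AT3G10390) encodes a histone demethylase homologue that promotes flowering by repressing *FLC*, and its last intron (73 nt, chr3:3232223-3232295) had 51.7, 55.9 and 45.5% in *prp40c-1* and 23.1, 22.0 and 15.9% in wild type. The groups stood apart, with a log2 change of 2.06 (SE 0.698, edgeR adjusted p = 0.391), and the p without single libraries reached 0.0542.

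*UPS2* (AT2G03530) encodes a ureide permease, and its intron of 64 nt (chr2:1072846-1072909) had 28.9, 19.1 and 16.7% in *prp40c-1* and 4.76, 3.03 and 5.98% in wild type. The lowest *prp40c-1* library lay well above the highest wild-type library, with a log2 change of 2.50 (SE 0.639, edgeR adjusted p = 0.323). AT4G02120 encodes a CTP synthase, an enzyme of pyrimidine nucleotide synthesis, and its intron of 66 nt (chr4:942544-942609) had 32.5, 24.7 and 25.6% in *prp40c-1* and 11.8, 12.7 and 12.4% in wild type. Its wild-type libraries were close together and below all *prp40c-1* libraries, with a log2 change of 1.43 (SE 0.514, edgeR adjusted p = 0.398). AT4G26600, of the S-adenosylmethionine-dependent methyltransferases, had 24.5, 39.8 and 25.6% in *prp40c-1* and 9.68, 11.5 and 11.1% in wild type at an intron of 78 nt (chr4:13422636-13422713). These groups stood apart too, with a log2 change of 1.80 (SE 0.608, edgeR adjusted p = 0.391), and the p without single libraries reached 0.0608 for AT4G02120 and 0.0541 for AT4G26600.

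The other gains rested on fewer reads. In AT3G08840, of the D-alanine-D-alanine ligase family, the intron of 74 nt (chr3:2680591-2680664) had 56.2, 45.5 and 51.5% in *prp40c-1* and 0, 25 and 0% in wild type. The wild-type shares rested on 1, 3 and 17 spliced reads and on 2 boundary reads in all, and the boundary reads per spliced read in *prp40c-1*, divided by those in wild type, gave a ratio of 22.5 (95% exact counting interval 5.88 to 191). The p without single libraries reached 0.192. In *CYP76C6* (AT1G33720), a cytochrome P450 gene, the last intron (75 nt, chr1:12221575-12221649) had 11.1, 16.4 and 30.0% in *prp40c-1* and 0, 0 and 3.70% in wild type. In all, 31 boundary reads were found in *prp40c-1* and 1 in wild type, a ratio of 25.8 (95% exact counting interval 4.31 to 1053). In the 5′ UTR of AT1G03960, of the calcium-binding EF hand family, the intron of 77 nt (chr1:1014544-1014620) had 17.2, 7.69 and 17.4% in *prp40c-1* and 0, 5.26 and 0% in wild type. It also had 1 wild-type boundary read, and the ratio was 11.5 (95% exact counting interval 1.77 to 485). The p without single libraries reached 0.166.

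*PPX2* (AT5G55260) encodes a protein phosphatase and had 14.3, 11.8 and 29.4% in *prp40c-1* and 0, 8.11 and 2.56% in wild type at its intron of 75 nt (chr5:22417642-22417716). In AT3G32940, an RNA-binding KH domain gene, the intron of 70 nt (chr3:13493059-13493128) had 8.11, 25.5 and 25% in *prp40c-1* and 6.33, 2.70 and 4.62% in wild type. In its *prp40c-1* libraries the first boundary had 4, 13 and 8 reads and the second 2, 0 and 4, so the boundaries were unevenly covered. The p without single libraries reached 0.0814 for *PPX2* and 0.0834 for AT3G32940.

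**Figure D5:**
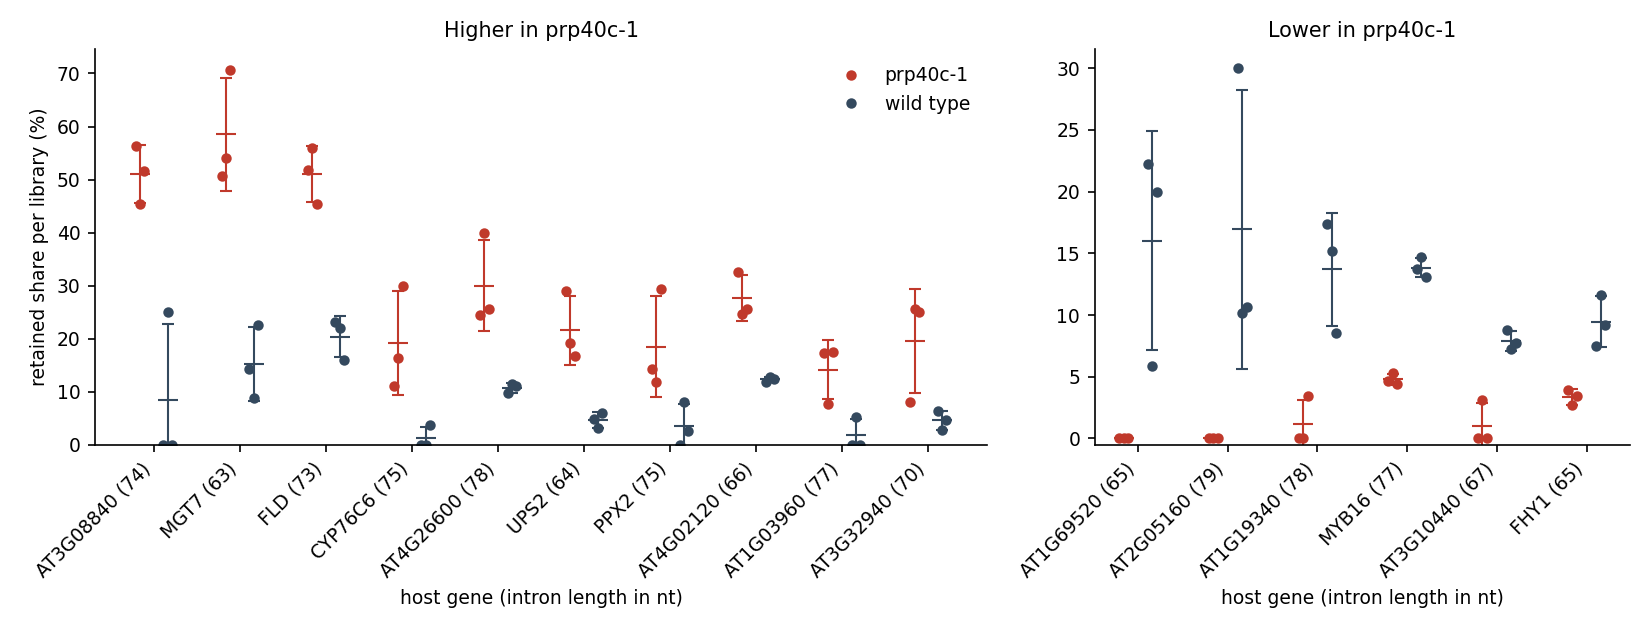
Retained share (%) in each library for the short introns with the 10 largest gains (left) and the 6 largest losses (right). Gains and losses were ranked among tested introns with an unadjusted p below 0.05 and no overlap between genotypes. Each panel shows *prp40c-1* left of wild type, with mean and SD of 3 libraries per genotype, and the vertical scales differ. *MGT7*, *FLD* and AT3G08840 reach 45.5% or more in every *prp40c-1* library, and the wild-type libraries of the 6 losses lie between 5.88 and 30.0%.

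Of 63 introns with a lower share at that p and without overlap, the 6 with the largest losses are described next, and none passed the adjusted threshold of edgeR either. *MYB16* (AT5G15310) encodes a transcription factor of epidermal cell shape and cuticle formation, and its last intron (77 nt, chr5:4975662-4975738) had 4.63, 5.31 and 4.40% in *prp40c-1* and 13.7, 14.7 and 13.1% in wild type. The libraries of each genotype lay close together and far from the other genotype, with 13, 11 and 8 against 29, 42 and 32 boundary reads and a log2 change of -1.67 (SE 0.534, edgeR adjusted p = 0.376). *FHY1* (AT1G79790), of the haloacid dehalogenase-like hydrolases, had 3.93, 2.69 and 3.45% in *prp40c-1* and 7.53, 11.6 and 9.20% in wild type at its intron of 65 nt (chr1:30017765-30017829). The groups did not overlap, with a log2 change of -1.57 (SE 0.543, edgeR adjusted p = 0.397).

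The remaining losses had few or no boundary reads in *prp40c-1*. In AT1G69520, of the S-adenosylmethionine-dependent methyltransferases, the intron of 65 nt (chr1:26129202-26129266) had 0, 0 and 0% in *prp40c-1* and 22.2, 5.88 and 20% in wild type. With a floor of 3 boundary reads over the *prp40c-1* group, which would be 2.48%, the ratio would be 7.70-fold lower in *prp40c-1*. This takes the wild-type reads as exact and is not a lower limit. This gene overlaps another locus, and the sources used here do not say whether reads were counted by strand. In AT2G05160, a CCCH zinc finger gene, the intron of 79 nt (chr2:1859290-1859368) had 0, 0 and 0% in *prp40c-1* and 30.0, 10.2 and 10.6% in wild type. By the same floor, 2.22%, the ratio would be 8.49-fold lower.

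In AT1G19340, of the MT-A70 methyltransferases, the first intron (78 nt, chr1:6685294-6685371) had 0, 0 and 3.45% in *prp40c-1* and 17.4, 15.2 and 8.57% in wild type. Over the libraries, 1 boundary read in *prp40c-1* stood against 16 in wild type, a ratio of 0.0547 (95% exact counting interval 0.00130 to 0.352). In AT3G10440, a gene with a shugoshin C terminus, the intron of 67 nt (chr3:3247886-3247952) had 0, 3.12 and 0% in *prp40c-1* and 8.77, 7.22 and 7.69% in wild type, a ratio of 0.131 (95% exact counting interval 0.0147 to 0.546). The p without single libraries reached 0.0568 for AT1G19340 and 0.101 for AT3G10440.

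The minimum mean was then raised from 5 to 10, for spliced reads in each genotype and for boundary reads in either. At that minimum edgeR called 12 of 799 short introns, against 1.9% of all introns tested. Of these, 8 were higher in *prp40c-1*, against 1.57% of all, and 4 were lower, against 0.332%. Only *MYB16* averaged 10 or more boundary reads in both genotypes. The other called introns passed only through the genotype with the higher share, so their direction is partly fixed and their values are descriptions. *MGT7* (edgeR adjusted p = 0.105), *UPS2* (0.104) and *MYB16* (0.138) were among the 12, and over all alternatives their adjusted p reached 0.805 each. Among the other 9, the differences in share were largest in *RUS3* and *CHY1*. *RUS3* (AT1G13770), of the root UVB sensitive family, had 20, 13.2 and 18.7% in *prp40c-1* and 7.06, 5.04 and 3.77% in wild type at an intron of 75 nt (chr1:4723321-4723395). *CHY1* (AT5G65940) encodes a peroxisomal hydrolase of valine breakdown, and its last intron (76 nt, chr5:26376962-26377037) had 1.32, 0 and 0.293% in *prp40c-1* and 2.59, 5.62 and 5.76% in wild type. The groups did not overlap in either.

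The other introns called at that minimum were spliced nearly completely in both genotypes. *CKL2* (AT1G72710), a casein kinase gene, had 2.50, 3.25 and 1.95% in *prp40c-1* and 0.727, 0.920 and 0.551% in wild type at an intron of 77 nt (chr1:27373893-27373969). *LACS4* (AT4G23850), a long-chain acyl-CoA synthetase gene, had 1.17, 3.48 and 1.01% in *prp40c-1* and 0.243, 0 and 0.158% in wild type at an intron of 78 nt (chr4:12405395-12405472). In *RAP2.7* (AT2G28550), a gene of the AP2 transcription factors, an intron of 75 nt (chr2:12226567-12226641) had 0.295, 0.237 and 0.229% in *prp40c-1* and 1.65, 1.70 and 0.638% in wild type. The groups were apart in each of these. *ATR2* (AT4G30210) encodes a reductase that supplies cytochromes P450 with electrons and had 0.877, 1.19 and 0.943% in *prp40c-1* and 0.2, 0 and 0% in wild type at an intron of 78 nt (chr4:14800009-14800086). With 2 boundary reads in wild type, its ratio was 15.2 (95% exact counting interval 3.91 to 130). *JAZ12* (AT5G20900), a repressor of jasmonate responses, had 0.706, 0.909 and 0.466% in *prp40c-1* and 0.0681, 0.0612 and 0.153% in wild type at an intron of 74 nt (chr5:7091501-7091574).

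The last 2 introns called at that minimum had the smallest differences in share and were picked after their values were seen. AT2G36160, a gene of the ribosomal protein S11 family, had 0.349, 0.543 and 0.161% in *prp40c-1* and 0, 0.101 and 0.0154% in wild type at an intron of 78 nt (chr2:15170387-15170464). *NPQ4* (AT1G44575) had the smallest adjusted p of these introns (0.0843 by edgeR at the minimum of 10, up to 0.805 over all alternatives). It encodes the photosystem II protein of non-photochemical quenching, and its intron of 79 nt (chr1:16872158-16872236) had 0.0284, 0.0525 and 0.0252% in *prp40c-1* and 0.126, 0.180 and 0.253% in wild type. The wild-type libraries were all higher, with 3, 5 and 2 against 17, 24 and 38 boundary reads. Of the 20 short introns called by DESeq2, 4 were also called by edgeR at the minimum of 10.

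The shortest introns differed in retention from each other. AT3G23080, of the polyketide cyclase and lipid transport family, had 8.90, 7.92 and 6.83% in *prp40c-1* and 8.21, 8.21 and 2.88% in wild type at its intron of 59 nt. AT4G24930, for a protein of the thylakoid lumen, had 0.688, 3.35 and 2.09% in *prp40c-1* and 1.71, 1.89 and 3.07% in wild type at its intron of 59 nt. The genotypes overlapped in both. *DPE1* (AT5G64860), a plastid enzyme of starch breakdown, had 0.257, 0 and 0% in *prp40c-1* and 0.625, 0 and 0% in wild type at its intron of 60 nt, with 595 spliced reads in *prp40c-1* and 603 in wild type. The introns of *ATGRIP* (AT5G66030), a Golgi protein gene, and *RDH2* (AT1G16460), a rhodanese homologue, ran between 0.275 and 5.15% and overlapped as well. No boundary read was found in *TROL* (AT4G01050, a thylakoid protein), *LARP6b* (AT2G43970, an RNA-binding protein) and *PAB2* (AT4G34110, a poly(A) binding protein), where 3 reads over the 6 libraries would be a share of 0.00927, 0.0129 and 0.0135%.

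The introns with the most spliced reads lay in genes of photosynthesis. *LHCB5* (AT4G10340), an antenna protein of photosystem II, had 0.0938, 0.109 and 0.0956% in *prp40c-1* and 0.159, 0.175 and 0.124% in wild type at its last intron (78 nt, chr4:6409158-6409235). *LHCA4* (AT3G47470), an antenna protein of photosystem I, had 0.280, 0.276 and 0.315% in *prp40c-1* and 0.396, 0.445 and 0.371% in wild type at an intron of 79 nt (chr3:17494110-17494188). Both lay lower in every *prp40c-1* library. *LHCB5* had a log2 change of -0.61 (SE 0.269, edgeR adjusted p = 0.462) and *LHCA4* a log2 change of -0.48 (SE 0.256, edgeR adjusted p = 0.537). The introns of *LHCB3* (AT5G54270), *PSAK* (AT1G30380) and *FBA2* (AT4G38970), for a light-harvesting protein, a photosystem I subunit and an aldolase of the Calvin cycle, overlapped between genotypes.

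By gene description, 15 photosystem and light-harvesting genes held 21 short introns. Their pooled share was 0.281, 0.311 and 0.316% in *prp40c-1* and 0.422, 0.392 and 0.370% in wild type. The wild-type libraries were all higher, the opposite order to the short introns as a whole. This pooled share weighs introns by reads and includes the introns of *LHCB5*, *LHCA4*, *LHCB3* and *PSAK* described above, so it is not a separate observation. Of 12 introns tested, 1 was higher and 2 lower at an unadjusted p below 0.05, the lower ones being those of *NPQ4* and *LHCB5*. The median log2 change was -0.54, or -0.72 with column totals, against 0.20 and 0.03 over all tested short introns. The list includes genes that only carry a PsbP-like name.

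In all introns tested, 7.18% were higher and 3.37% lower at that p. Genes with kinase in the protein name, a list not limited to protein kinases, held 852 short introns. These had 0.942, 1.04 and 0.923% in *prp40c-1* and 0.741, 0.832 and 0.769% in wild type, without overlap. Of 153 tested, 14 were higher and 2 lower at that p, with a median log2 change of 0.32, or 0.14 with column totals. The 39 short introns of ribosomal protein genes had 0.299 ± 0.0626% in *prp40c-1* and 0.255 ± 0.0357% in wild type, and the 37 of proteasome genes had 0.196 ± 0.0496% in *prp40c-1* and 0.194 ± 0.0329% in wild type (SD, n = 3 each), with overlap in both. Of 14 and 3 tested, 2 ribosomal protein introns were higher and 0 proteasome introns differed at that p. Aminoacyl-tRNA ligase and NLR disease resistance genes had 0 of 5 and 0 of 6 tested introns at that p, and translation factor and splicing factor genes had 1 of 7 and 1 of 5, both higher. The median log2 change was -0.95 for NLR introns (-1.15 with column totals), of which 5 of 6 were negative. It was -0.32 for ligases and -0.34 for translation factors (-0.51 each with column totals), 0.23 for splicing factors (0.01), 0.03 for ribosomal proteins (-0.15) and 0.01 for proteasome subunits (-0.19). The 28 NLR introns had 1.49 ± 0.384% in *prp40c-1* and 1.91 ± 0.417% in wild type (SD, n = 3 each), with overlap. These groups were chosen with results of the same data known, and no group was tested as such.

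The genes with the most short introns differed from each other. *ILA* (AT1G64790), a HEAT repeat protein that acts in translation control, held 12, and *TOR* (AT1G50030), the target of rapamycin kinase, held 11. None of these had enough boundary reads to be tested, and 8 in *ILA* and 9 in *TOR* had no boundary read at all. AT4G02120, the CTP synthase gene, also held 11, of 61 to 79 nt, and 9 were tested. Their pooled share was 9.08, 7.71 and 10.0% in *prp40c-1* and 6.21, 7.27 and 4.36% in wild type. The groups did not overlap, but the introns of this gene differed in direction, with 3 higher and 1 lower at an unadjusted p below 0.05. The intron of 74 nt at chr4:941571-941644 had 16.7, 9.09 and 29.0% in *prp40c-1* and 8.80, 4.81 and 6.56% in wild type. The intron of 69 nt at chr4:942013-942081 had 0, 0.308 and 0.633% in *prp40c-1* and 4.56, 0.719 and 2.07% in wild type. The intron of 65 nt at chr4:942673-942737 had 14.4, 16.5 and 11% in *prp40c-1* and 13.8, 16.6 and 9.29% in wild type, with overlap. The gene itself had 47.7 CPM in *prp40c-1* and 40.2 CPM in wild type, a log2 fold change of 0.25 (edgeR adjusted p = 0.103).

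Gene counts were not used to choose the introns, but the rule asked for spliced reads in both genotypes, which depend on expression. Host genes were thus chosen for expression in both genotypes, and their share called is not independent of the rule. The level of the host genes was tested with edgeR over 22182 genes that averaged 10 or more counts in either genotype. With an FDR limit of 0.05 and a log2 fold change beyond 0.58 in either direction, 122 of 5876 host genes were called (2.08%), against 3.67% of all genes tested. Of these, 104 were overexpressed in *prp40c-1*, against 2.81% of all genes, and 18 underexpressed, against 0.852%. Without *prp40c-1* replicate 3, 80 host genes were called.

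Among 215 host genes of the introns with a p below 0.05, 9 were called (4.19%), all overexpressed, against 3.67% of all genes tested, or 2.81% overexpressed, and nothing is read from this share. *MCCA* (AT1G03090), for a subunit of methylcrotonyl-CoA carboxylase in leucine breakdown, had a log2 fold change of 0.73 (SE 0.0904, edgeR adjusted p = 6e-05), and its intron of 73 nt had a pooled share of 5.92% in *prp40c-1* and 0.377% in wild type. *KAT1* (AT5G46240), a potassium channel gene of guard cells, had a log2 fold change of 0.63, and its intron of 75 nt had 7.72% in *prp40c-1* and 1.23% in wild type. In AT5G22920 the directions differed, with a log2 fold change of 1.22 for the gene and a share of 0.519% in *prp40c-1* and 1.89% in wild type for its intron of 77 nt. These 3 genes were picked after their values were seen. Among the genes with the largest gains, *CYP76C6* was called, with a log2 fold change of 0.73 (SE 0.220, edgeR adjusted p = 0.0431). The genes of *MGT7*, *FLD*, *UPS2* and *MYB16* were not called, with log2 fold changes of 0.43, -0.13, 0.27 and 0.02.

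Few genes of factors that act at these splice sites passed the limits for expression. Of 12 genes of the U1 snRNP and its partners, only the mutated gene *PRP40C* was called, against 3.67% of all genes tested. With *PRP40C* included, 4 had an FDR below 0.05. The share of all genes below that FDR without the fold limit is not given here, so nothing is read from this count. *U1-70K* (AT3G50670), for a core U1 protein, had 104 ± 3.30 CPM in *prp40c-1* and 80.7 ± 2.96 CPM in wild type (SD, n = 3 each), a log2 fold change of 0.36 (SE 0.0644, edgeR adjusted p = 0.00152) below the limit of 0.58. The others were AT1G60200, for a protein with a PWI domain, with a log2 fold change of 0.31 (SE 0.0634, edgeR adjusted p = 0.00473), and *PRP40B* (AT3G19670), a relative of *PRP40C*, with a log2 fold change of 0.24 (SE 0.0714, edgeR adjusted p = 0.0388). Over 6 genes for the branch point binding protein, the U2AF subunits and SR45, log2 fold changes ran between -0.03 and 0.21, and the highest was that of the U2AF gene AT1G60900 (edgeR adjusted p = 0.0430).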

How the data were processed

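RNA-seq of poly(A) RNA from whole seedlings was analysed for 3 *prp40c-1* and 3 wild-type libraries. The authors mapped paired reads to TAIR10 and deposited raw counts per gene and per junction, unpooled. The submitters' processing notes name TopHat2 2.1.1 and SAMtools 1.3. Strand use and the handling of reads with several hits are not given in the sources used here. The deposited columns of pooled shares were not used.

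Intron retention was tested with the counts at both boundaries and the spliced counts in edgeR 4.0.16 (R 4.3.3) by the quasi-likelihood interaction of read type and genotype, with 1 effect per library, equal library sizes and Benjamini-Hochberg adjustment over all introns tested. Introns needed a mean of 5 spliced reads in each genotype and 5 boundary reads in at least 1. Gene counts were scaled by TMM and tested where they averaged 10 or more in either genotype. DESeq2 1.42.0, other minimums, length and share limits, library sizes, single boundaries, a replicate block and leaving out each library were alternatives. The fits were tested on simulated data, where the gene fit called most of the changed genes and the intron fit few of the changed introns. Gene counts per library were 34200225 to 40919516, and depth limits introns with few boundary reads.

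The text names the tested short introns with an unadjusted p below 0.05 and no overlap that had the 10 largest gains and 6 largest losses, up to 10 introns called at a minimum of 10 by difference in share, the 5 shortest with at least 100 spliced reads in every library, the 5 with most spliced reads, 3 without boundary reads and the 3 genes with most short introns. The introns, gene lists and tests were chosen with earlier results of these data known. Intron sequences, places and motifs came from RefSeq TAIR10.1, where 9871 of 9882 introns matched an annotated intron exactly. The labels give no batch. Libraries of a genotype differed by more than counting noise.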

Additional observations from a re-analysis of the deposited data

How the results depend on the processing

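With a minimum mean of 10 reads, edgeR called 12 short introns, and 87 were higher and 47 lower at an unadjusted p below 0.05, with fewer introns tested. DESeq2 called 20. Without a minimum of boundary reads, 133 were lower and the median log2 change was 0.13, and with column totals the median was 0.031. The limit of 75 nt gave 54 higher and 37 lower and a pooled difference of 0.128 percentage points, and the limit of 90 nt gave 324 higher and 214 lower. Leaving out each library in turn gave 0 calls, 116 to 130 higher, 62 to 89 lower, a median of 0.17 to 0.22 and a pooled difference of 0.0759 to 0.0964. Host genes called ran between 80 (without *prp40c-1* replicate 3) and 147. Halving the boundary reads of short introns, an alternative chosen after seeing the data, gave 0 calls, 104 higher and 55 lower.

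The replicate block gave 0 calls, 143 higher and 94 lower, a median of 0.21 and 126 host genes. Same-numbered libraries had deviations correlated at -0.0077, 0.0867 and 0.0231 over genes and 0.0151, 0.0279 and 0.0284 over introns, so the numbers were not taken as pairing. The 25 introns named for a difference or a call were chosen for it, so their direction is no sign of stability. Of their 343 alternative values 18 passed the threshold, 0 in leaving out a library, and 9 introns had a p above 0.05 without at least 1 library. Among the shortest introns the log2 change crossed 0 in leaving out libraries for AT3G23080 (-0.07 to 0.68), AT4G24930 (-0.75 to 0.31) and *ATGRIP* (-0.41 to 1.78). Depth limits introns with few boundary reads, whose shares rest on a handful of reads, and the cause of the differences between settings was not tested.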
